A study of Mus musculus with 35 samples.

Results

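Oxidative phosphorylation is carried out in the inner mitochondrial membrane by 5 protein complexes, most of whose subunits are encoded in the nucleus. Complex I (NADH dehydrogenase), complex III (cytochrome bc1) and complex IV (cytochrome c oxidase) pump protons as electrons pass to oxygen, complex II (succinate dehydrogenase) feeds in electrons from the TCA cycle, and complex V is the ATP synthase. Several complex IV subunits exist as a broadly used isoform and a partner used mainly in heart and skeletal muscle, lung or testis. The nuclear genes of these complexes were selected by name: symbols starting with Nduf, Uqcr, Cox4 to Cox8 or Atp5, plus Sdha, Sdhb, Sdhc and Sdhd. Of 100 matching names, 7 marked as pseudogenes were left out, which left 93 of the 49671 genes in the table. They comprised 36 complex I subunits, 8 complex I assembly factors (Ndufaf genes, which help build the complex but are not part of it), 4 genes of complex II, 8 of complex III, 20 of complex IV and 17 of complex V. Ndufa4 and Ndufa4l2 were counted with complex IV. Atp5s and Atp5sl match the rule by name although they are not subunits of the ATP synthase.

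RNA was measured in 7 groups of 5 libraries. The cells were lineage-negative hematopoietic stem and progenitor cells (HSPC) from the bone marrow of C57Bl/6 mice, transduced with lentivirus, sorted for the vector's fluorescence and grown for 1 week in methylcellulose with 10 ng/mL GM-CSF. Empty cells carried the vector alone. G-NHX9 cells expressed the leukemia fusion NUP98-HOXA9 joined to mEGFP, and the other groups expressed changed forms of it. In G-NHX9-8FA and G-NHX9-21FGAA, phenylalanine or phenylalanine-glycine residues of the NUP98 segment were mutated, in G-NHX9-midi the segment was truncated, G-NHX9-midi-21FGAA combined both changes, and in G-NHX9-DDNA the homeodomain of HOXA9 was mutated to weaken DNA binding. The labels give an age of 8 weeks for the mice except for Empty replicate 4 (9 weeks), Empty replicate 5 (10 weeks) and G-NHX9 replicate 1 (11 weeks). These 3 ages rise in steps of 1 over consecutive entries and may be an entry error rather than true ages. The labels do not say whether the 5 libraries of a group came from separate mice or cultures, so the p-values measure the spread between these libraries, which may be technical. Libraries held between 31559914 and 75810659 counts, with a median of 45464263. The leukocyte marker Ptprc averaged between 598 and 809 CPM (counts scaled to library size) in the 7 groups. The cultures were mixed, and the summed level of 10 mast cell and basophil markers ranged from a mean of 623 CPM in G-NHX9-midi to 4835 CPM in G-NHX9-midi-21FGAA. In such bulk samples, fewer cells of a type and less RNA per cell cannot be told apart.

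Nearly all the subunit genes were well expressed. Of the 93 genes, 89 had enough counts to be tested. The 4 others were isoforms of restricted use: Cox7b2 and Cox8c had no count in any library, Cox8b had 1 count in all, and Ndufa4l2 had at most 4 in a library. A count of 0 allows up to 3 counts, which is between 0.0382 and 0.0996 CPM in these libraries, for counting error only. Levels are given as CPM after trimmed mean of M-values (TMM) scaling. Only levels divided by the joint length of all annotated exons of a gene (CPM per kb) were compared between genes. That length, 5628 bases for Ndufb2, can exceed the length of the main transcript and then gives a lower value, so the order of genes depends on it. In Empty cells the median over members of at least 5 CPM was 32.0 CPM per kb for complex I, 45.3 for complex II, 96.8 for complex III, 127 for complex IV and 58.1 for complex V. The 7 complex I assembly factors above that level had a median of 3.58 CPM per kb, below the lowest complex I subunit, Ndufb2, at 4.55 CPM per kb. The highest member per kb was Cox8a (266), a small complex IV subunit, and the highest of complex V was Atp5a1 (178), which encodes the alpha subunit of the catalytic head of the ATP synthase.

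Promoter sequence was available in RefSeq (build GRCm38.p6) for 77 of the 93 genes, from 250 bases before the start to 50 after it. NRF1, GABPA and YY1 are transcription factors known to act at many of these promoters. The NRF1 motif, searched on both strands as a core of 10 bases with 1 free position, was present in 24.7% of the 77, in 5.19% of all 27025 genes with a promoter sequence and in 10.7% of the 11328 tested genes with one. The GABPA motif CCGGAAG was present in 23.4% of the 77 and in 18.8% of these tested genes, and the YY1 motif in 7.79% and 1.65%, all on both strands. The promoters of 3 genes are shown as examples: a broadly used complex IV isoform, a restricted one and an assembly factor. Each runs from 250 to 51 bases before the start, with matches to the NRF1 motif in capitals. They do not stand for their classes. The broadly used complex IV genes Cox5a, Cox6b1, Cox7a2, Cox7b, Cox7c and Cox8a had no NRF1 match. Of the assembly factors, Ndufaf5 also had a match, while Ndufaf1, Ndufaf2, Ndufaf3, Ndufaf7 and Ndufaf8 had none. Cox6a1 (chr5:115349009-115349208, minus strand) held 2 matches, Cox7a1 (chr7:30183921-30184120, plus strand) none and Ndufaf4 (chr4:24897833-24898032, plus strand) 1. No match in capitals overlapped a match to another motif.
Cox6a1: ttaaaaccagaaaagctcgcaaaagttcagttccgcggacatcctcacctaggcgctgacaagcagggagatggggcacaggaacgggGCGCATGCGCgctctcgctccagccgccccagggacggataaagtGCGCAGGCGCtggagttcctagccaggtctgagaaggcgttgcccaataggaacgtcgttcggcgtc
Cox7a1: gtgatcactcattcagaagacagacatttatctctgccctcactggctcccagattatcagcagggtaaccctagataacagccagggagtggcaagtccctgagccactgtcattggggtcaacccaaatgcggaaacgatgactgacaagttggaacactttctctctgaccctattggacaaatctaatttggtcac
Ndufaf4: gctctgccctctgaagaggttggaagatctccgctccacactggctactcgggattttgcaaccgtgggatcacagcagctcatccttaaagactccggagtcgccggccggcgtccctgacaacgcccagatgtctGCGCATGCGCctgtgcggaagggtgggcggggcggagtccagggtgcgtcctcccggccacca

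Across the 7 groups the subunit genes moved little. Of the 84 members of at least 5 CPM, 77 had group means that differed by less than 1.5-fold between the highest and the lowest group, and the median ratio was 1.2. The ratio was 1.17 for Ndufs1 and 1.08 for Ndufv1, core subunits of complex I. It was 1.19 for Sdha, 1.12 for Sdhb, 1.15 for Sdhc and 1.13 for Sdhd, the 4 subunits of complex II, and 1.12 for Uqcrc1 and 1.14 for the Rieske protein gene Uqcrfs1 in complex III. It was 1.21, 1.19 and 1.22 for Atp5g1, Atp5g2 and Atp5g3, which encode the same mature c subunit of the ATP synthase ring. At the other end stood the restricted complex IV isoforms Cox6a2 (32.4), Cox4i2 (9.56), Cox7a1 (2.92) and Cox6b2 (2.73). Cox7a2l (2.07), Uqcrq (1.97), Ndufaf7 (1.66), Ndufaf6 (1.63) and Ndufaf4 (1.58) followed. In each construct against Empty, between 93.3% and 97.8% of the tested members lay within 0.5 log2 units of no change, against 62.2% to 77.9% of all tested genes. The gap was smaller among genes of at least 5 CPM, with 96.4% to 98.8% of members against 72.5% to 86.9% of all genes.

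**Figure D1:**
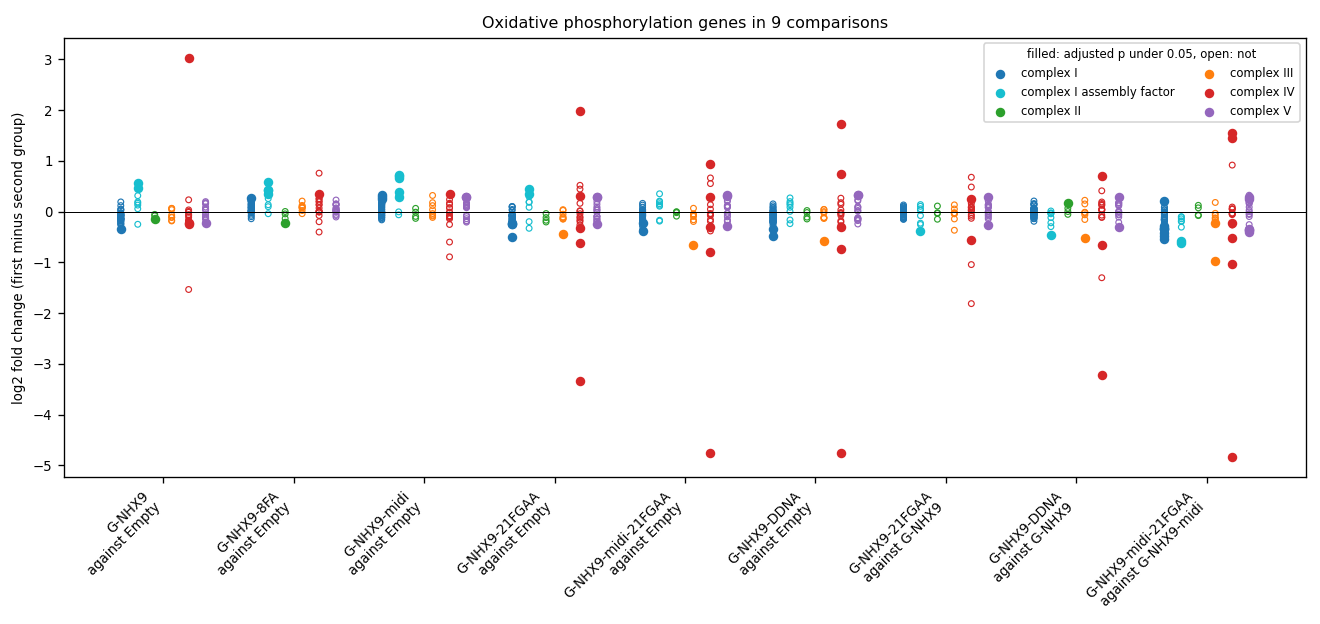
Log2 fold change (y axis) of each tested member in the 9 comparisons (x axis), colored by complex, with filled points for an adjusted p under 0.05. Most points lie close to 0, and the farthest below 0 is Cox6a2, at -4.83 in G-NHX9-midi-21FGAA against G-NHX9-midi.

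The summed level of all members averaged 8470 ± 866 CPM (SD, n = 5) in Empty and between 8180 and 8814 CPM in the 6 construct groups, so that the group means lay within 1 SD of Empty. The complex I sum was 2140 ± 222 CPM in Empty and ranged from 1966 ± 148 CPM in G-NHX9-21FGAA to 2252 ± 184 CPM in G-NHX9-8FA. The complex IV sum was 2020 ± 226 CPM in Empty and 1769 ± 80.4 CPM in G-NHX9-midi-21FGAA, and the complex V sum was 2822 ± 315 and 3117 ± 134 CPM in the same groups. The libraries of Empty and G-NHX9-midi-21FGAA overlapped in both sums. The assembly factor sum did separate: it lay between 71.7 and 91.7 CPM in the Empty libraries, between 93.8 and 106 CPM in G-NHX9-8FA and between 98.8 and 108 CPM in G-NHX9-midi. The 13 subunits encoded in mitochondrial DNA summed to 9399 ± 308 CPM in Empty, with group means from 7327 ± 1435 CPM in G-NHX9-21FGAA to 10353 ± 1221 CPM in G-NHX9-8FA.

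**Figure D2:**
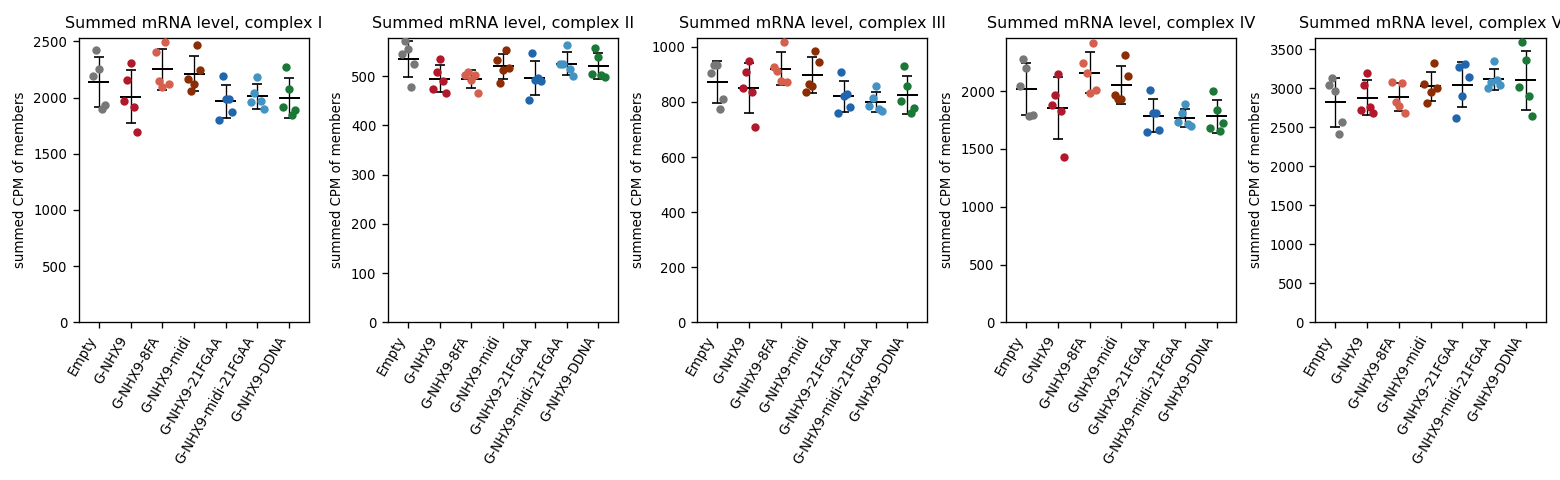
Summed CPM (y axis) of the members of each complex by group (x axis), with a point per library and the mean ± SD over 5 libraries. In the sums of the 5 complexes, the libraries of each construct group overlap those of Empty. The sum of the complex I assembly factors, which is not drawn, is higher in G-NHX9-midi (98.8 to 108 CPM) than in Empty (71.7 to 91.7 CPM).

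The largest fold change was in Cox6a2, the heart and skeletal muscle isoform of complex IV subunit 6A, which was low with 3 of the constructs. Its gene lies at chr7:128205435-128206387 on the minus strand. In replicates 1 to 5, Cox6a2 stood at 10.9, 38.1, 19.7, 19.7 and 4.07 CPM in Empty, at 34.8, 13.1, 17.7, 25.6 and 18.7 CPM in G-NHX9-8FA and at 24.8, 13.8, 19.2, 21.5 and 18.1 CPM in G-NHX9-midi. In G-NHX9 the values were 9.62, 6.13, 14.7, 1.43 and 0.156 CPM. In G-NHX9-21FGAA they were 3.23, 1.68, 3.76, 0.254 and 0.215 CPM. The G-NHX9 libraries thus spread from the level of Empty to that of the low groups. In both G-NHX9 and G-NHX9-21FGAA, replicates 4 and 5 were well below replicates 1 to 3. They were not the lowest in Empty, G-NHX9-8FA, G-NHX9-midi or G-NHX9-DDNA. The labels do not say what the replicate number marks, so a difference between replicates and scatter cannot be told apart. Cox6a2 stood at 0.265, 2.20, 0.430, 0.256 and 0.242 CPM in G-NHX9-midi-21FGAA and at 0.475, 0.538, 0.123, 0.262 and 2.02 CPM in G-NHX9-DDNA. Each of the 15 libraries of these 3 groups lay below every Empty library. With edgeR's quasi-likelihood test and Benjamini-Hochberg adjustment over all 17166 genes tested, the log2 fold change against Empty was -3.35 ± 0.78 (SE, adjusted p = 0.0017) in G-NHX9-21FGAA. It was -4.76 ± 0.85 (adjusted p = 0.00058) in G-NHX9-midi-21FGAA and -4.76 ± 0.86 (adjusted p = 0.00064) in G-NHX9-DDNA. These 3 calls held under each alternative and each left-out library. In G-NHX9 it was -1.53 ± 0.72, which did not pass (adjusted p = 0.10) and did pass with the replicate number as a block (-1.70 ± 0.69, adjusted p = 0.049). G-NHX9-8FA (0.25 ± 0.69, adjusted p = 0.84) and G-NHX9-midi (0.08 ± 0.69, adjusted p = 0.94) were not distinguishable from Empty.

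Cox6a2 also differed between constructs. It was lower in G-NHX9-midi-21FGAA than in G-NHX9-midi by -4.83 ± 0.85 on the log2 scale (edgeR, adjusted p = 2.2e-05) and lower in G-NHX9-DDNA than in G-NHX9 by -3.23 ± 0.83 (adjusted p = 0.0044). G-NHX9-21FGAA and G-NHX9 were not told apart (-1.81, edgeR adjusted p = 0.10). The broadly used partner Cox6a1 had a ratio of 1.18 between its highest and lowest group. Per length, Cox6a2 made up 9.65 ± 5.73% (SD, n = 5) of the Cox6a1 and Cox6a2 total in Empty, 11.4 ± 2.16% in G-NHX9-midi, 1.28 ± 1.19% in G-NHX9-21FGAA and 0.453 ± 0.562% in G-NHX9-midi-21FGAA. Striated muscle markers did not accompany Cox6a2: the 10 summed to between 1.55 and 1.93 CPM in the group means, with Mb, Myh6 and Ckmt2 at no more than 1 count in a library. The 9 plasmacytoid dendritic cell markers summed to 210 ± 23.5 CPM (SD, n = 5) in Empty, 241 ± 22.7 in G-NHX9, 207 ± 27.3 in G-NHX9-8FA, 188 ± 16.6 in G-NHX9-midi, 160 ± 11.2 in G-NHX9-21FGAA, 164 ± 17.4 in G-NHX9-midi-21FGAA and 161 ± 24.3 in G-NHX9-DDNA. Of the 6 tested, 5 were lower than in G-NHX9 both in G-NHX9-21FGAA and in G-NHX9-DDNA, where 8.34% and 11.4% of all genes were lower. In G-NHX9-midi-21FGAA against G-NHX9-midi, the comparison with the largest fall of Cox6a2, only 1 was lower, where 22.2% of all genes were. Against Empty, 1 was lower in each of the 3 groups with little Cox6a2. The shares of all genes were 12.5% in G-NHX9-21FGAA, 7.32% in G-NHX9-midi-21FGAA and 7.35% in G-NHX9-DDNA. Among the defining markers, Siglech had at most 6 counts and Klk1 at most 2 in a library. Itgad overlaps Cox6a2 on the opposite strand and stood at no more than 1.65 CPM. Mast cell and basophil markers summed to 2494 ± 870 CPM in Empty, 733 ± 110 in G-NHX9, 744 ± 139 in G-NHX9-8FA, 3721 ± 459 in G-NHX9-21FGAA and 3074 ± 508 in G-NHX9-DDNA, and the part of these marker levels in the Cox6a2 levels was not tested.

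**Figure D3:**
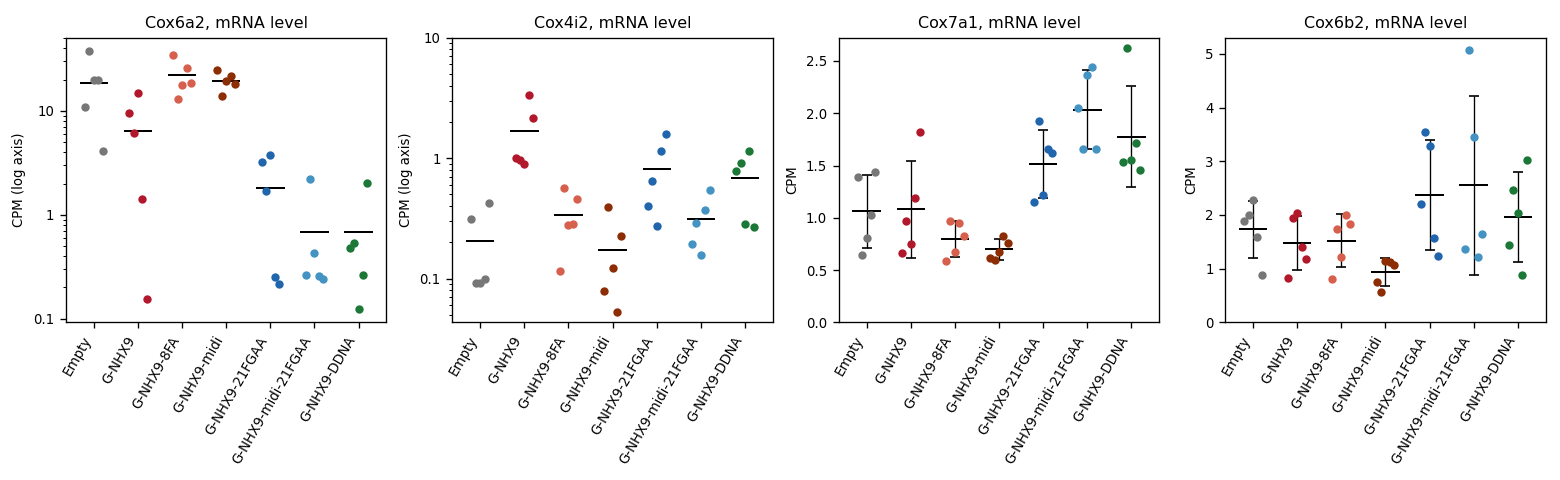
CPM (y axis, logarithmic for Cox6a2 and Cox4i2, linear from 0 for Cox7a1 and Cox6b2) of 4 restricted complex IV isoforms by group (x axis), with a point per library and a line at the mean, and SD bars in the linear panels. Cox6a2 lies below 4 CPM in every library of G-NHX9-21FGAA, G-NHX9-midi-21FGAA and G-NHX9-DDNA, and Cox4i2 is highest in G-NHX9 (0.899 to 3.31 CPM).

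Other restricted isoforms moved in other directions. Cox4i2, the lung-type and hypoxia-associated isoform of subunit 4, stood at 0.312, 0.0918, 0.0924, 0.0996 and 0.429 CPM in Empty, where a library held 3 to 14 counts, and at 1.00, 0.973, 0.899, 3.31 and 2.16 CPM in G-NHX9. The 2 groups did not overlap. In G-NHX9, replicates 4 and 5 were the highest in Cox4i2 and the lowest in Cox6a2. It rose by 3.03 ± 0.57 on the log2 scale in G-NHX9 (edgeR, adjusted p = 9.8e-05), by 1.99 ± 0.57 in G-NHX9-21FGAA (adjusted p = 0.0095) and by 1.73 ± 0.58 in G-NHX9-DDNA (adjusted p = 0.037). The call in G-NHX9-DDNA was lost without Empty replicate 2, 3 or 4, without G-NHX9-DDNA replicate 1, 2 or 4, with no filter, and without the 3 libraries not labelled 8 weeks (adjusted p = 0.059). Its broad partner Cox4i1 was lower in G-NHX9-21FGAA (-0.31 ± 0.08, edgeR adjusted p = 0.0052), G-NHX9-midi-21FGAA (-0.31 ± 0.08, adjusted p = 0.011) and G-NHX9-DDNA (-0.30 ± 0.08, adjusted p = 0.014). These Cox4i1 calls were lost without TMM scaling, the last 2 also with no filter, and that in G-NHX9-DDNA also without Empty replicate 2 or 3. Even in G-NHX9, Cox4i2 made up only 1.03 ± 0.688% (SD, n = 5) of the subunit 4 total per length.

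Cox7a1, the heart and muscle isoform of subunit 7A, was highest in G-NHX9-midi-21FGAA, at 2.05, 1.66, 2.37, 2.45 and 1.66 CPM, and lowest in G-NHX9-midi, at 0.618, 0.600, 0.675, 0.829 and 0.762 CPM. The Empty libraries lay between 0.643 and 1.44 CPM, below each library of G-NHX9-midi-21FGAA. It rose by 0.94 ± 0.24 on the log2 scale in G-NHX9-midi-21FGAA against Empty (edgeR, adjusted p = 0.0072) and by 1.54 ± 0.25 against G-NHX9-midi (adjusted p = 4.7e-06). In G-NHX9-DDNA the rise was 0.74 ± 0.24 (edgeR, adjusted p = 0.031), a call lost without Empty replicate 2, 3 or 4 or G-NHX9-DDNA replicate 2, with no filter and with only the 2 groups fitted. Cox6b2, the testis isoform of subunit 6B, was higher in G-NHX9-midi-21FGAA than in G-NHX9-midi (1.44 ± 0.38, edgeR adjusted p = 0.0024), with libraries between 1.22 and 5.08 CPM against 0.570 to 1.15 CPM. Cox6a2 and Cox7a1 share a muscle-type pattern in the body and moved in opposite directions here in G-NHX9-midi-21FGAA.

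Cox7a2l and Uqcrq, both widely expressed, fell in the same 3 groups as Cox6a2. Cox7a2l is related to the subunit 7A isoforms and is studied for a role in supercomplexes of complexes III and IV, which were not measured in these C57Bl/6 cells. It stood at 230, 310, 298, 246 and 225 CPM in Empty, 177, 192, 191, 152 and 137 CPM in G-NHX9-21FGAA, 139, 169, 157, 153 and 137 CPM in G-NHX9-midi-21FGAA and 138, 163, 146, 147 and 195 CPM in G-NHX9-DDNA. Each library of these 3 construct groups lay below each Empty library. The log2 fold change was -0.62 ± 0.13 (edgeR, adjusted p = 0.00053), -0.79 ± 0.13 (adjusted p = 0.00029) and -0.73 ± 0.13 (adjusted p = 0.00052) in that order. Against their own references it was -0.55 ± 0.13 for G-NHX9-21FGAA and -0.66 ± 0.13 for G-NHX9-DDNA against G-NHX9 (edgeR, adjusted p = 0.0021 and 0.00026) and -1.03 ± 0.13 for G-NHX9-midi-21FGAA against G-NHX9-midi (adjusted p = 7.8e-08). All 6 calls held under each alternative and each left-out library. The 3 comparisons with Empty share its libraries. Uqcrq, a small subunit of complex III, stood at 63.7, 81.9, 73.7, 58.1 and 49.7 CPM in Empty, 74.4, 79.3, 76.8, 89.8 and 87.7 CPM in G-NHX9-midi and 40.3, 47.9, 45.9, 35.3 and 37.7 CPM in G-NHX9-midi-21FGAA. The last group lay below the other two throughout. Uqcrq fell by 0.66 ± 0.15 on the log2 scale in G-NHX9-midi-21FGAA (edgeR, adjusted p = 0.0036) and by 0.58 ± 0.15 in G-NHX9-DDNA (adjusted p = 0.008) against Empty, and by 0.98 ± 0.15 in G-NHX9-midi-21FGAA against G-NHX9-midi (adjusted p = 3.3e-06). Its fall of 0.43 ± 0.15 in G-NHX9-21FGAA (edgeR, adjusted p = 0.031) was lost without Empty replicate 1, 2 or 3 or G-NHX9-21FGAA replicate 4 or 5, without TMM scaling, with no filter and with only the 2 groups fitted. Against G-NHX9, the fall of 0.52 ± 0.15 in G-NHX9-DDNA (adjusted p = 0.012) was lost without G-NHX9 replicate 2 or 3 or G-NHX9-DDNA replicate 4, and G-NHX9-21FGAA passed only with the replicate block (-0.35 ± 0.13, adjusted p = 0.047).

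**Figure D4:**
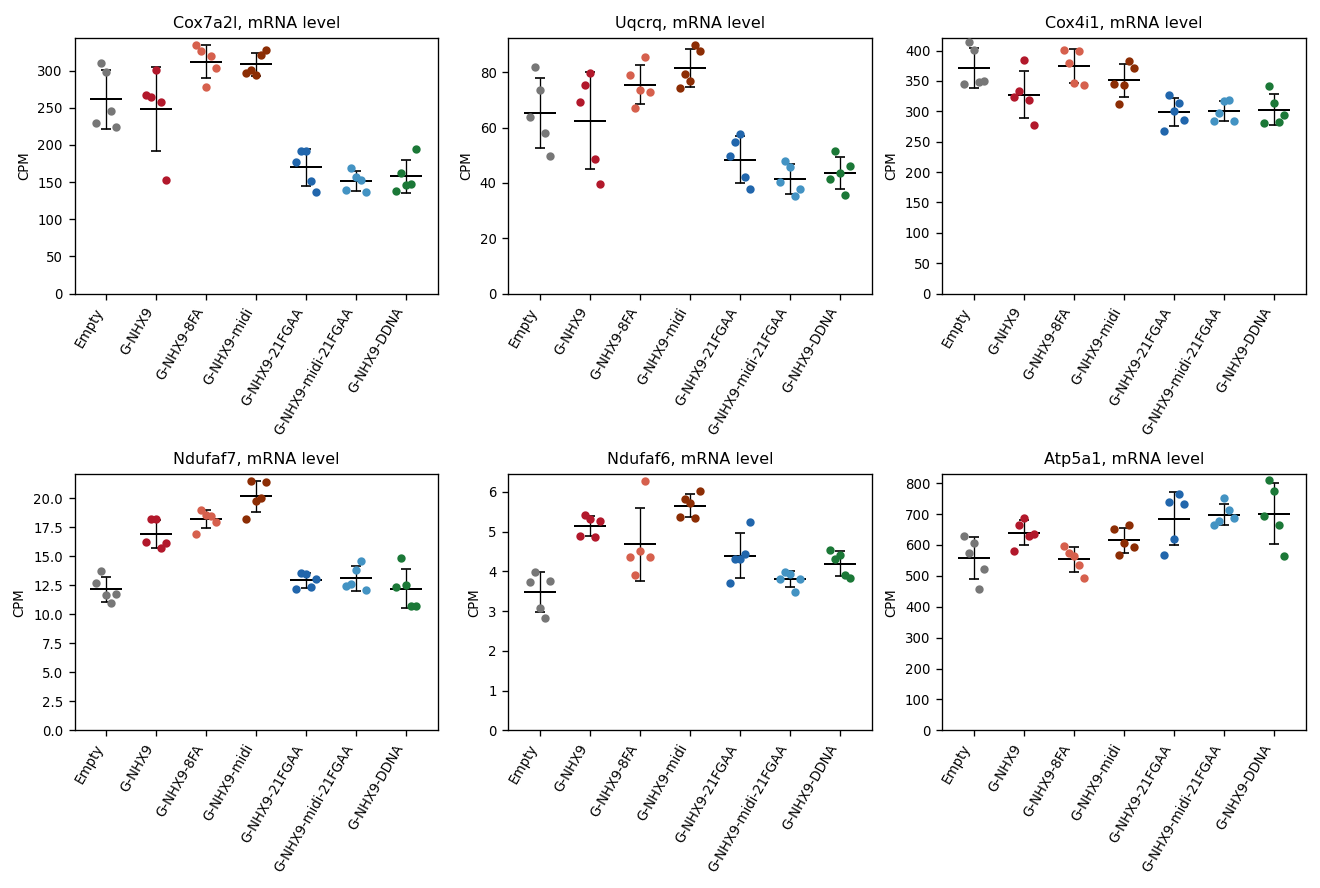
CPM (y axis) of 6 members by group (x axis), with a point per library and the mean ± SD over 5 libraries. Cox7a2l is below 200 CPM in every library of G-NHX9-21FGAA, G-NHX9-midi-21FGAA and G-NHX9-DDNA and above 220 CPM in every Empty library, and Ndufaf7 is highest in G-NHX9-midi.

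Several complex I assembly factors rose, Ndufaf7 with G-NHX9, G-NHX9-8FA and G-NHX9-midi and others also with G-NHX9-21FGAA. Ndufaf7, a methyltransferase that acts on a core complex I subunit, stood at 12.7, 13.7, 11.7, 11.0 and 11.7 CPM in Empty, 16.2, 18.2, 18.2, 15.7 and 16.2 CPM in G-NHX9, 16.9, 19.0, 18.6, 18.5 and 17.9 CPM in G-NHX9-8FA and 18.2, 21.5, 19.8, 20.03 and 21.4 CPM in G-NHX9-midi. None of these 3 groups overlapped Empty. The rise was 0.47 ± 0.08 on the log2 scale in G-NHX9 (edgeR, adjusted p = 5.2e-05), 0.58 ± 0.08 in G-NHX9-8FA (adjusted p = 3.5e-06) and 0.73 ± 0.08 in G-NHX9-midi (adjusted p = 2.4e-08), and these calls held under each alternative and left-out library. In the other groups Ndufaf7 lay between 10.7 and 14.8 CPM, and it was lower in G-NHX9-21FGAA (-0.39 ± 0.08, edgeR adjusted p = 0.001) and G-NHX9-DDNA (-0.47 ± 0.08, adjusted p = 9.1e-05) than in G-NHX9 and lower in G-NHX9-midi-21FGAA than in G-NHX9-midi (-0.62 ± 0.08, adjusted p = 3.1e-07). Ndufaf6 rose by 0.57 ± 0.12, 0.43 ± 0.12 and 0.70 ± 0.11 in G-NHX9, G-NHX9-8FA and G-NHX9-midi (edgeR, adjusted p = 0.00026, 0.0055 and 8.9e-06) and by 0.34 ± 0.11 in G-NHX9-21FGAA (adjusted p = 0.027). It averaged 4.48 CPM over the groups and was not among the members followed with each library left out, so how firm these calls are is not known. Ndufaf4 rose by 0.66 ± 0.15 in G-NHX9-midi (edgeR, adjusted p = 0.00082), where its libraries ran from 14.0 to 26.2 CPM against 9.70 to 14.7 CPM in Empty, so that the groups overlapped. It also rose by 0.42 ± 0.15 in G-NHX9-8FA (edgeR, adjusted p = 0.038) and 0.45 ± 0.15 in G-NHX9-21FGAA (adjusted p = 0.026), calls lost without the 3 libraries not labelled 8 weeks. The first was also lost with no filter, without Empty replicate 3, 4 or 5 or G-NHX9-8FA replicate 1, 2 or 3, and the second without Empty replicate 5 or G-NHX9-21FGAA replicate 4 or 5. Ndufaf5 rose by 0.35 in G-NHX9-8FA (edgeR, adjusted p = 0.015) and by 0.39 in G-NHX9-midi (adjusted p = 0.0039). Both calls were lost without the 3 libraries not labelled 8 weeks. That in G-NHX9-8FA was also lost without Empty replicate 3, 4 or 5 or G-NHX9-8FA replicate 4. It was lost too with no filter and with only the 2 groups fitted. Of the 8 assembly factors, 2 were called higher in G-NHX9 (16.9% of all genes were), 4 in G-NHX9-8FA (13.4%), 5 in G-NHX9-midi (20.5%) and 2 in G-NHX9-21FGAA (14.7%), none in G-NHX9-midi-21FGAA or G-NHX9-DDNA, and none lower against Empty. Their median log2 fold change ran from 0.11 in G-NHX9-DDNA to 0.35 in G-NHX9-midi, against medians between -0.02 and 0.03 over all tested genes.

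Subunits of the catalytic head of the ATP synthase showed small rises. Atp5a1, the alpha subunit, stood at 628, 573, 605, 458 and 524 CPM in Empty and 665, 676, 751, 713 and 686 CPM in G-NHX9-midi-21FGAA, with no overlap. It rose by 0.30 ± 0.10 on the log2 scale in G-NHX9-21FGAA (edgeR, adjusted p = 0.02), 0.32 ± 0.10 in G-NHX9-midi-21FGAA (adjusted p = 0.018) and 0.33 ± 0.10 in G-NHX9-DDNA (adjusted p = 0.016). Atp5b, the beta subunit, rose by 0.28 to 0.33 in these groups and in G-NHX9-midi (edgeR, adjusted p from 0.026 to 0.036). Ndufa4, a complex IV subunit first assigned to complex I, rose by 0.30 to 0.34 in G-NHX9-8FA, G-NHX9-midi, G-NHX9-21FGAA and G-NHX9-midi-21FGAA. All of these calls of Atp5a1, Atp5b and Ndufa4 were lost without the 3 libraries not labelled 8 weeks (Empty replicates 4 and 5 and G-NHX9 replicate 1), where Atp5a1 was 0.20, 0.22 and 0.22 (edgeR, adjusted p = 0.18, 0.17 and 0.15). Each of the 3 Atp5a1 calls was also lost without Empty replicate 4 alone, and those in G-NHX9-21FGAA and G-NHX9-DDNA without G-NHX9-21FGAA replicate 4 or G-NHX9-DDNA replicate 2 or 3. The Atp5b calls were lost without Empty replicate 4 or 5 and, in G-NHX9-midi and G-NHX9-midi-21FGAA, without Empty replicate 3. They were also lost without replicate 1 or 4 of G-NHX9-midi, 4 or 5 of G-NHX9-21FGAA, 3, 4 or 5 of G-NHX9-midi-21FGAA, or 2 or 3 of G-NHX9-DDNA. The Ndufa4 call held under each left-out library in G-NHX9-midi and was lost without Empty replicate 4 in the other 3 groups, without Empty replicate 5 or G-NHX9-8FA replicate 4 in G-NHX9-8FA, and without Empty replicate 5 or G-NHX9-midi-21FGAA replicate 2, 3 or 4 in G-NHX9-midi-21FGAA.

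Against Empty, the shares of members called were below those of all genes in 11 of 12 counts of the main fit. For the counts under other settings or left-out libraries, here and below, the share of all genes called is given only with the replicate block. The other counts cannot be set beside it, and whether their shifts are particular to the members was not tested. In G-NHX9, 3 members were higher and 5 lower, where 16.9% and 15.2% of all tested genes were called. The lower ones were Ndufa7, an accessory complex I subunit (-0.35 ± 0.13, edgeR adjusted p = 0.043), Cox6a1, Cox5a, Atp5l and Sdha, at -0.24 to -0.15. Ndufa7 lost its call without Empty replicate 1, 2 or 3 or G-NHX9 replicate 1, 4 or 5, and Sdha without Empty replicate 2 or 3 or G-NHX9 replicate 1 or 4. Atp5l lost it without Empty replicate 3, Cox6a1 without Empty replicate 2 and Cox5a without G-NHX9 replicate 4. Leaving out a library gave 10 lower members without Empty replicate 4, 8 without Empty replicate 5, 14 without G-NHX9 replicate 3, 3 without Empty replicate 3 or G-NHX9 replicate 1, and 2 without Empty replicate 2 or G-NHX9 replicate 4. Without Empty replicate 1, 5 were higher. With the replicate block, 4 were higher and 9 lower, where 20.4% and 19.8% of all genes were. The added members were Cox6a2, Ndufa13 (-0.27, edgeR adjusted p = 0.030), Ndufb9 (-0.24, adjusted p = 0.028), Atp5f1 (-0.22, adjusted p = 0.025) and Ndufa4 (0.23, adjusted p = 0.049). Without TMM scaling 18 were higher and 0 lower, where 75.4% of the calls over all genes were higher instead of 52.5%. The lower count was 0 with no filter, 1 with only the 2 groups fitted, 8 with a mean of at least 1 CPM, 9 with DESeq2 and 13 without the 3 libraries not labelled 8 weeks. In G-NHX9-8FA, 6 were higher and 1 lower (13.4% and 13.2% of all genes). The lower one was Sdha, the flavoprotein of succinate dehydrogenase, at 169, 175, 183, 157 and 175 CPM against 197, 212, 213, 191 and 196 CPM in Empty (-0.23 ± 0.06, edgeR adjusted p = 0.0023), a call that held under each alternative. Leaving out Empty replicate 4 or 5 or G-NHX9-8FA replicate 4 left 2 higher members. Higher members numbered 10 without TMM scaling (58.5% of the calls over all genes were higher instead of 50.4%), 3 with no filter and 3 with only the 2 groups fitted. Without the libraries not labelled 8 weeks 1 was higher and 2 lower. In G-NHX9-midi, 11 were higher and 0 lower (20.5% and 20% of all genes). Without TMM scaling 38 were higher, where 64.6% of the calls over all genes were higher instead of 50.6%. Without the libraries not labelled 8 weeks 3 were higher and 3 lower. The lower count was 4 with DESeq2, 3 with the replicate block, 2 with a mean of at least 1 CPM, and 1 with RLE size factors or with only the 2 groups fitted. Without Empty replicate 4, 7 were higher and 1 lower. Without Empty replicate 2, 3 or 5, 1 was lower, and without G-NHX9-midi replicate 4, 3 were.

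In G-NHX9-21FGAA, 6 members were higher and 9 lower (14.7% and 12.5% of all genes), the lower ones including Ndufa7 (-0.49 ± 0.13, edgeR adjusted p = 0.0061). The higher count was 2 without Empty replicate 4 and 3 without G-NHX9-21FGAA replicate 4 or 5. The lower count was 14 without G-NHX9-21FGAA replicate 2, 5 without Empty replicate 1 or G-NHX9-21FGAA replicate 1, and 4 without Empty replicate 2 or 3 or G-NHX9-21FGAA replicate 5. Without TMM scaling 21 were higher and 3 lower, where 82.1% of the calls over all genes were higher instead of 54%. With only the 2 groups fitted 3 were higher and 5 lower, and without the libraries not labelled 8 weeks 1 and 15. The lower count was 4 with no filter and 15 with the replicate block (17% of all genes). In G-NHX9-midi-21FGAA, 4 were higher and 7 lower (9.59% and 7.32% of all genes), and 7 of 89 was the 1 count whose share, 7.87%, exceeded that of all genes. The higher count was 1 without Empty replicate 4 and 2 without Empty replicate 5 or G-NHX9-midi-21FGAA replicate 3 or 4. The lower count was 4 without Empty replicate 2 or 3 or G-NHX9-midi-21FGAA replicate 1, 4 or 5. Without TMM scaling 14 were higher and 3 lower, where 83.1% of the calls over all genes were higher instead of 56.7%. With no filter 3 were lower, and without the libraries not labelled 8 weeks 1 was higher. The replicate block, with 12.1% of all genes called lower, added Cox7c (-0.37, edgeR adjusted p = 0.022), Ndufa7 (-0.36, adjusted p = 0.025) and Ndufs7 (-0.23, adjusted p = 0.044). In G-NHX9-DDNA, 4 were higher and 6 lower (9.85% and 7.35% of all genes). The higher count was 0 without Empty replicate 4 or G-NHX9-DDNA replicate 2 and 2 without Empty replicate 2 or 3 or G-NHX9-DDNA replicate 3, and the lower count was 3 without Empty replicate 2. Higher members numbered 10 without TMM scaling (82.5% of the calls over all genes were higher instead of 57.3%), 2 with no filter, and 1 with only the 2 groups fitted or without the libraries not labelled 8 weeks. The block, with 13.3% of all genes called higher and 11.7% lower, added Atp5h (-0.24, edgeR adjusted p = 0.024), Ndufs3 (-0.23, adjusted p = 0.035), Cox6a1 (-0.21, adjusted p = 0.044) and Ndufa4 (0.26, adjusted p = 0.040). At most 4 of the 36 complex I subunits were called in any construct against Empty, and 31 of 36 fold changes were negative in G-NHX9 and in G-NHX9-21FGAA, 29 in G-NHX9-midi-21FGAA and in G-NHX9-DDNA, while 29 of 36 were positive in G-NHX9-8FA. The medians lay between -0.12 and 0.07, against -0.02 to 0.03 over all tested genes. The share of all genes with each sign is not given. Genes measured in the same libraries are not independent, so these sign counts are a description only. Without TMM scaling the median of all members was 0.09 instead of -0.08 in G-NHX9, 0.09 instead of -0.09 in G-NHX9-21FGAA, 0.09 instead of -0.05 in G-NHX9-midi-21FGAA and 0.06 instead of -0.07 in G-NHX9-DDNA, while the median of all genes moved to between 0.12 and 0.19.

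Between constructs, the counts were small against G-NHX9. In G-NHX9-21FGAA, 2 members were higher and 3 lower (8.91% and 8.34% of all genes). The higher ones were Cox5a and Atp5f1, and the third lower one, beside Cox7a2l and Ndufaf7, was Atp5sl. The higher count was 1 without G-NHX9 replicate 4 or G-NHX9-21FGAA replicate 2 or 3. The lower count was 5 without G-NHX9 replicate 5 and 5 with the replicate block (11.3% of all genes). With only the 2 groups fitted, 0 were higher. In G-NHX9-DDNA, 3 were higher (Cox7a1, Atp5f1 and Sdha) and 5 lower (10.7% and 11.4% of all genes). The higher count was 0 without G-NHX9-DDNA replicate 2 and 1 without G-NHX9 replicate 1 or G-NHX9-DDNA replicate 3, and the Cox7a1 call was also lost without G-NHX9 replicate 2 or 3. Higher members numbered 1 without TMM scaling or with no filter and 0 with only the 2 groups fitted. With the replicate block, Cox4i2 was also lower than in G-NHX9, by -1.09 ± 0.39 in G-NHX9-21FGAA (edgeR, adjusted p = 0.041) and -1.20 ± 0.40 in G-NHX9-DDNA (adjusted p = 0.024), where Cox5a was higher by 0.19 (adjusted p = 0.043). G-NHX9-midi-21FGAA against G-NHX9-midi gave the most calls, with 5 members higher and 19 lower (21% and 22.2% of all genes), which is 5.62% and 21.3% of the tested members. The 19 included 7 complex I subunits, among them Ndufa6 (-0.54 ± 0.12, edgeR adjusted p = 0.00045) and Ndufc2 (-0.48 ± 0.09, adjusted p = 4.6e-05), and the complex IV subunit Cox7c (-0.53 ± 0.14, adjusted p = 0.0026). Higher members numbered 3 without G-NHX9-midi replicate 2 and 2 without G-NHX9-midi-21FGAA replicate 3.

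Other genes of the pathway were followed as lists. Of 39 tested assembly factors of complexes I to V outside the Ndufaf genes, 4 were higher and 3 lower than in Empty in G-NHX9, 6 higher and 1 lower in G-NHX9-8FA, 9 higher and none lower in G-NHX9-midi, 4 higher and 6 lower in G-NHX9-21FGAA, 4 higher and 3 lower in G-NHX9-midi-21FGAA and 1 higher and 4 lower in G-NHX9-DDNA. The shares of all genes called higher and lower were 16.9% and 15.2%, 13.4% and 13.2%, 20.5% and 20%, 14.7% and 12.5%, 9.59% and 7.32%, and 9.85% and 7.35% in that order. In G-NHX9-midi-21FGAA against G-NHX9-midi, 2 were higher and 16 lower, where 21% and 22.2% of all genes were called. Cox14, which takes part in the assembly of complex IV, was lower in G-NHX9-21FGAA (-0.46 ± 0.10, edgeR adjusted p = 0.00079), G-NHX9-midi-21FGAA (-0.51 ± 0.10, adjusted p = 0.0011) and G-NHX9-DDNA (-0.46 ± 0.10, adjusted p = 0.0022), the groups in which Cox6a2 and Cox7a2l were low. Cox17, a copper chaperone for complex IV, was lower in G-NHX9-midi-21FGAA than in G-NHX9-midi (-0.68 ± 0.12, edgeR adjusted p = 1.7e-05). Of 13 TCA cycle genes, between 1 and 4 were higher with each construct, where 9.59% to 20.5% of all genes were. The count of 1 was in G-NHX9-midi-21FGAA, and 1 was lower in G-NHX9-8FA and 1 in G-NHX9-midi. Idh3a, a subunit of isocitrate dehydrogenase, rose in 5 of the 6 constructs, by 0.70 ± 0.13 in G-NHX9-21FGAA (edgeR, adjusted p = 0.00013). Of the 13 mitochondrially encoded subunits, none was called in G-NHX9, G-NHX9-21FGAA or G-NHX9-DDNA, 2 were higher in G-NHX9-8FA (13.4% of all genes) and 1 in G-NHX9-midi (20.5%), and 1 was lower in G-NHX9-midi-21FGAA (7.32%).

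Among 13 regulators, the coactivator gene Ppargc1a, known for driving mitochondrial gene expression, was higher in G-NHX9 than in Empty. It was at 1.08, 0.677, 0.522, 1.66 and 1.69 CPM in G-NHX9 and at no more than 0.0689 CPM in any Empty library, where a library held at most 3 counts (edgeR, adjusted p = 7.4e-09). The libraries of G-NHX9-21FGAA, G-NHX9-midi-21FGAA and G-NHX9-DDNA held at most 4, 2 and 2 counts of Ppargc1a. Its levels in G-NHX9-8FA and G-NHX9-midi are not given here, so the rise is not called particular to G-NHX9. The members' median log2 fold change in G-NHX9 was -0.08. Gabpb1, a subunit of the GABP factor, rose by 0.36 ± 0.07 in G-NHX9 (edgeR, adjusted p = 0.00038), 0.37 ± 0.07 in G-NHX9-8FA (adjusted p = 0.00034) and 0.49 ± 0.07 in G-NHX9-midi (adjusted p = 2.6e-06), the 3 groups in which Ndufaf7 rose. Gabpb1 in the other constructs is not given here. The promoter of Ndufaf7 held no match to the GABPA motif, and a link between these genes was not tested. Cell type markers also differed between the groups. The 9 tested erythroid markers summed to 379 ± 178 CPM (SD, n = 5) in Empty, 51.4 ± 18.1 in G-NHX9-8FA and 58.7 ± 13.8 in G-NHX9-midi, against 915 ± 562 in G-NHX9-21FGAA, 1073 ± 387 in G-NHX9-midi-21FGAA and 881 ± 482 in G-NHX9-DDNA, while G-NHX9 was at 334 ± 111. The 8 neutrophil markers summed to 9578 ± 1681 CPM in Empty, 11047 ± 1928 in G-NHX9, 24460 ± 8038 in G-NHX9-8FA, 15945 ± 4741 in G-NHX9-midi, 10667 ± 2313 in G-NHX9-21FGAA, 8407 ± 2949 in G-NHX9-midi-21FGAA and 15709 ± 3606 in G-NHX9-DDNA. The part of these marker levels in the changes of Cox7a2l, Uqcrq and the assembly factors was not tested.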

How the data were processed

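Gene expression was measured by RNA-seq in 35 libraries made with a stranded total RNA kit. Per the labels, the authors aligned reads with STAR 2.7.0d to mm10 and deposited raw HTSeq 0.11.2 counts per gene. The strand setting and annotation of the counting are not given in the sources used here, so reads of overlapping genes (32 members have a gene on the opposite strand) and of similar copies (44 members share at least 100 bases at 95% identity with another gene) may be shared. Members and lists were chosen with earlier results of these data known.

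Genes passing filterByExpr (17166, with 99.96% of counts) were tested with edgeR 4.0.16 (R 4.3.3, limma 3.58.1) by the quasi-likelihood F test, with TMM scaling (factors 0.899 to 1.11), a mean for each of 7 groups in 1 fit and Benjamini-Hochberg adjustment within each of 9 comparisons at 0.05. The SE is the log2 fold change divided by the square root of F. Totals of 31559914 to 75810659 counts set the precision. No 2 libraries of a group were near-identical: over 70 pairs, the lowest chi-square per degree of freedom was 24.9.

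Named members were the isoform pairs, the core subunits, and up to 3 rises and 3 falls per construct among called members of at least 5 CPM. Other called members were named after their values were seen. Alternatives were no TMM, relative log expression (RLE) size factors, no filter, a mean of at least 1 CPM, a replicate block, 2 groups only, DESeq2 1.42.0, leaving out the 3 libraries not labelled 8 weeks, and leaving out each library. Replicate numbers in the labels were taken to pair samples where every same-numbered correlation of deviations from the group means was over 0.1. That was so in 5 of 9 comparisons (for G-NHX9 against Empty, 0.242 to 0.491). Libraries correlating best with their own number were 2 of 5 for G-NHX9, 3 for G-NHX9-midi-21FGAA and 2 for G-NHX9-DDNA against Empty. Against G-NHX9 they were 5 for G-NHX9-21FGAA and 2 for G-NHX9-DDNA. This count did not separate these comparisons from the rest. The main fit had no block, so its p-values leave any pairing out. Figures were drawn with matplotlib 3.10.9.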

Additional observations from a re-analysis of the deposited data

Results flagged for a closer look

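In 6 of 105 groups of 5 libraries checked (15 measures in 7 groups), 1 library lay apart from the other 4, with a gap above 0.710 of the group's range, where chance gives about 1 in 20. Cox6a2 was at 2.2 CPM in replicate 2 of G-NHX9-midi-21FGAA, against 0.242 to 0.43 in the others. It was at 2.02 CPM in replicate 5 of G-NHX9-DDNA, against 0.123 to 0.538. Both values were still below the lowest Empty library, at 4.07 CPM. Cox7a1 was at 2.62 CPM in replicate 2 of G-NHX9-DDNA, against 1.46 to 1.71, and its call there was lost without that library. Ndufaf4 was at 14.5 CPM in replicate 4 of G-NHX9, against 16.3 to 17. Ndufaf6 was at 6.27 CPM in replicate 4 of G-NHX9-8FA, against 3.9 to 4.51. The summed level of the complex I assembly factors was 93.1 CPM in replicate 3 of G-NHX9-midi-21FGAA, against 84.1 to 84.7.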

How the results depend on the processing

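The calls of Cox6a2, Cox7a2l and Ndufaf7 named in the report held under each alternative run. Over all named members, the alternatives other than left-out libraries kept direction and side of the threshold in 2146 cases, gained a call in 79, lost one in 68 and turned 1 around: without TMM scaling Sdha in G-NHX9 against Empty was 0.0332. Counts of called members moved more, and the cause was not tested. Apart from the replicate block, the share of all genes called under each alternative is not given, so these counts cannot be set beside it. Against Empty without TMM scaling, 18 members were higher and 0 lower in G-NHX9, 10 higher in G-NHX9-8FA, 38 higher in G-NHX9-midi, 21 higher and 3 lower in G-NHX9-21FGAA, 14 higher and 3 lower in G-NHX9-midi-21FGAA, and 10 higher in G-NHX9-DDNA, and 1 was higher in G-NHX9-DDNA than in G-NHX9. That setting moved the share of higher calls among all genes from 52.5% to 75.4% in G-NHX9, from 50.6% to 64.6% in G-NHX9-midi, from 54% to 82.1% in G-NHX9-21FGAA, from 56.7% to 83.1% in G-NHX9-midi-21FGAA and from 57.3% to 82.5% in G-NHX9-DDNA. It also gave a summed CPM of complex II in Empty of 493.51 and a summed CPM of complex II in G-NHX9-8FA of 470.83. With no filter, 0 were lower in G-NHX9, 3 higher in G-NHX9-8FA, 4 lower in G-NHX9-21FGAA, 3 lower in G-NHX9-midi-21FGAA, and 2 higher in G-NHX9-DDNA against Empty and 1 against G-NHX9. With a mean of at least 1 CPM, 8 were lower in G-NHX9 and 2 in G-NHX9-midi, and with RLE size factors 1 was lower in G-NHX9-midi. With the replicate block, 9 were lower in G-NHX9, 3 in G-NHX9-midi, 15 in G-NHX9-21FGAA, and 5 in G-NHX9-21FGAA against G-NHX9. The shares of all genes called lower were then 19.8%, 23.8%, 17% and 11.3%. The block lost no call among the members. In the 4 comparisons whose numbers did not pair by that check (G-NHX9-8FA, G-NHX9-midi and G-NHX9-21FGAA against Empty, and G-NHX9-midi-21FGAA against G-NHX9-midi) the lowest correlation was -0.151, -0.068, -0.098 and 0.029, and 4, 2, 2 and 4 of the 5 libraries correlated best with their own number. With 2 groups only, 1 was lower in G-NHX9, 3 higher in G-NHX9-8FA, 1 lower in G-NHX9-midi, 3 higher and 5 lower in G-NHX9-21FGAA and 1 higher in G-NHX9-DDNA, and 0 were higher in G-NHX9-21FGAA or G-NHX9-DDNA than in G-NHX9. DESeq2 called 9 lower in G-NHX9 and 4 in G-NHX9-midi. Without the 3 libraries not labelled 8 weeks, 13 were lower in G-NHX9, 1 higher and 2 lower in G-NHX9-8FA, 3 higher and 3 lower in G-NHX9-midi, 1 higher and 15 lower in G-NHX9-21FGAA, 1 higher in G-NHX9-midi-21FGAA and 1 higher in G-NHX9-DDNA.

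With each library left out in turn, the higher and lower counts against Empty ran from 3 to 5 and 2 to 14 in G-NHX9, 2 to 6 and 1 to 1 in G-NHX9-8FA, 7 to 15 and 0 to 3 in G-NHX9-midi, 2 to 7 and 4 to 14 in G-NHX9-21FGAA, 1 to 5 and 4 to 9 in G-NHX9-midi-21FGAA, and 0 to 6 and 3 to 7 in G-NHX9-DDNA. Against G-NHX9 they ran from 1 to 3 and 2 to 5 in G-NHX9-21FGAA and from 0 to 3 and 4 to 6 in G-NHX9-DDNA, and in G-NHX9-midi-21FGAA against G-NHX9-midi from 2 to 7 and 13 to 20. Of the named members' values, 2744 kept their call, 31 gained one, 105 lost one and 0 turned around.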
